A study of Rattus norvegicus with 36 samples.

Results

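rno-miR-137, rno-miR-153 and the rno-miR-218 family were taken as every row of the deposited miRNA table that carries 1 of these names, with any arm or copy suffix, which gave 8 of 723 mature miRNAs. They were measured by small RNA sequencing in 36 libraries from 12 male heterogeneous stock (HS) rats, an outbred population. Each rat gave 1 library from the infralimbic (IL) prefrontal cortex, 1 from the prelimbic (PL) prefrontal cortex and 1 from the nucleus accumbens (NAc). Naïve rats (n = 4) took no cocaine, withdrawal rats (n = 4) were killed 18 h after the last session of escalated cocaine self-administration (SA) by the study's methods and 16 h by the sample labels, and abstinence rats (n = 4) were killed after 4 weeks of forced abstinence. Cocaine rats had 10 sessions of 2 h and then 14 sessions of 6 h at 0.5 mg/kg per infusion, through a jugular catheter. The groups were matched on age at the start of SA. Abstinence rats were killed later after SA than withdrawal rats, so abstinence and age at death cannot be told apart between these groups. Surgery, sessions and behavioural tests, which scored escalation, progressive ratio and resistance to foot shock, are described for the cocaine rats. The naïve comparison is therefore with rats that differ in these steps too. The libraries are of dissected tissue, so a lower share of 1 cell type and less of a miRNA per cell cannot be told apart.

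A miRNA gene is transcribed as a hairpin, from which the enzymes Drosha and Dicer cut a duplex of 2 short strands, the 5p arm and the 3p arm. Usually 1 arm is kept by an Argonaute protein as the guide and pairs with target mRNAs mainly through its seed, bases 2 to 8, while the other arm is degraded. miR-137 is a neuronal miRNA studied for its part in neuron maturation and synapses, and its locus lies in a region associated with schizophrenia in human studies. miR-153 is a brain miRNA known for targeting synaptic vesicle and alpha-synuclein transcripts. miR-218 is abundant in neurons, marks motor neurons and midbrain dopamine neurons in mice, and is made from 2 genes that lie within the axon guidance genes Slit2 and Slit3.

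The mature sequences are shown because arms and copies of these miRNAs behaved differently and because their base composition bears on the comparison of regions. They are those of RefSeq on the rat build GRCr8, 5′ to 3′, with the seed in capitals, and all 8 members were matched.
miR-137-3p: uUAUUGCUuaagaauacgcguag
miR-137-5p: aCGGGUAUucuuggguggauaa
miR-153-3p: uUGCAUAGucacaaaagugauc
miR-153-5p: gUCAUUUUugugauguugcagcu
miR-218a-5p: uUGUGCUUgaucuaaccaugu
miR-218a-1-3p: aAACAUGGuuccgucaagcac
miR-218a-2-3p: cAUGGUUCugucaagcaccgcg
miR-218b: cAUGGUUAgaucaagcacaa
The 8 seeds are all different, and 0 other miRNAs among the 411 of 457 tested that had a RefSeq sequence had any of them. The GC content was 34.8% in miR-137-3p, 36.4% in miR-153-3p, 38.1% in miR-218a-5p, 39.1% in miR-153-5p, 45.5% in miR-137-5p, 47.6% in miR-218a-1-3p and 59.1% in miR-218a-2-3p.

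Mir137 lies on chr2:209165709-209165810, plus strand, within an annotated long non-coding RNA gene, and Mir153 on chr6:144306594-144306680, plus strand, within the span of Ptprn2, which encodes a protein of neuronal dense-core vesicles. Mir218-1 lies on chr14:66922348-66922457, minus strand, within Slit2, and Mir218-2 on chr10:20572523-20572632, plus strand, within Slit3. The annotation used here gives gene spans and not exons, so exonic and intronic positions were not determined. Both Mir218 genes give the same miR-218a-5p, so its counts cannot be assigned to a copy, whereas the 3p arms differ and can. miR-218b is made from the strand opposite Mir218-1, and its reverse complement is bases 1 to 20 of miR-218a-5p.

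The hairpin of Mir137 is shown because the ratio of its arms differed between regions, with the 5p arm and then the 3p arm in capitals.
Mir137: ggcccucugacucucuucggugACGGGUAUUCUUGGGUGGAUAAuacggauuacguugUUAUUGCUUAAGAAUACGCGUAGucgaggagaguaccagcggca

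Libraries held 6192155 to 18877136 counts (median 10739453.5), and RIN, the RNA integrity number, ranged from 7.4 to 9.3, with the 2 libraries under 8 both from the abstinence rat M363. In the PL all 4 withdrawal libraries (11372613 to 18877136 counts) were deeper than all 4 naïve libraries (7517269 to 9911807 counts). Neuron-enriched miRNAs were detected in every library, 19 of 20 listed being in the table. Their summed level ranged from 197600 to 671500 CPM (counts per 1e+06 counts of the scaled library), with miR-128-3p, miR-9a-5p and miR-129-5p the most abundant.

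rno-miR-218a-5p had 1459454 counts in all, 0.374% of all counts, and ranked 43 of 723 by mean level. miR-137-5p had 60665 counts and rno-miR-137-3p 4697, so that the 5p arm outnumbered the 3p arm, although the 3p arm is the one usually studied as the guide. How the workflow assigned reads and their length variants to the arms cannot be checked from the counts, so the excess and the arm shares given below hold for the deposited counts. miR-218a-2-3p had 470 counts, miR-218a-1-3p 375, rno-miR-153-3p 370 and miR-153-5p 123, between 0 and 36 counts in any 1 library. miR-218b had 0 of 390477775 counts, which allows a level of up to 0.00768 CPM. Of the 8 members, 6 passed the filter on low counts, and miR-153-5p and miR-218b did not and have no fitted change.

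**Figure D1:**
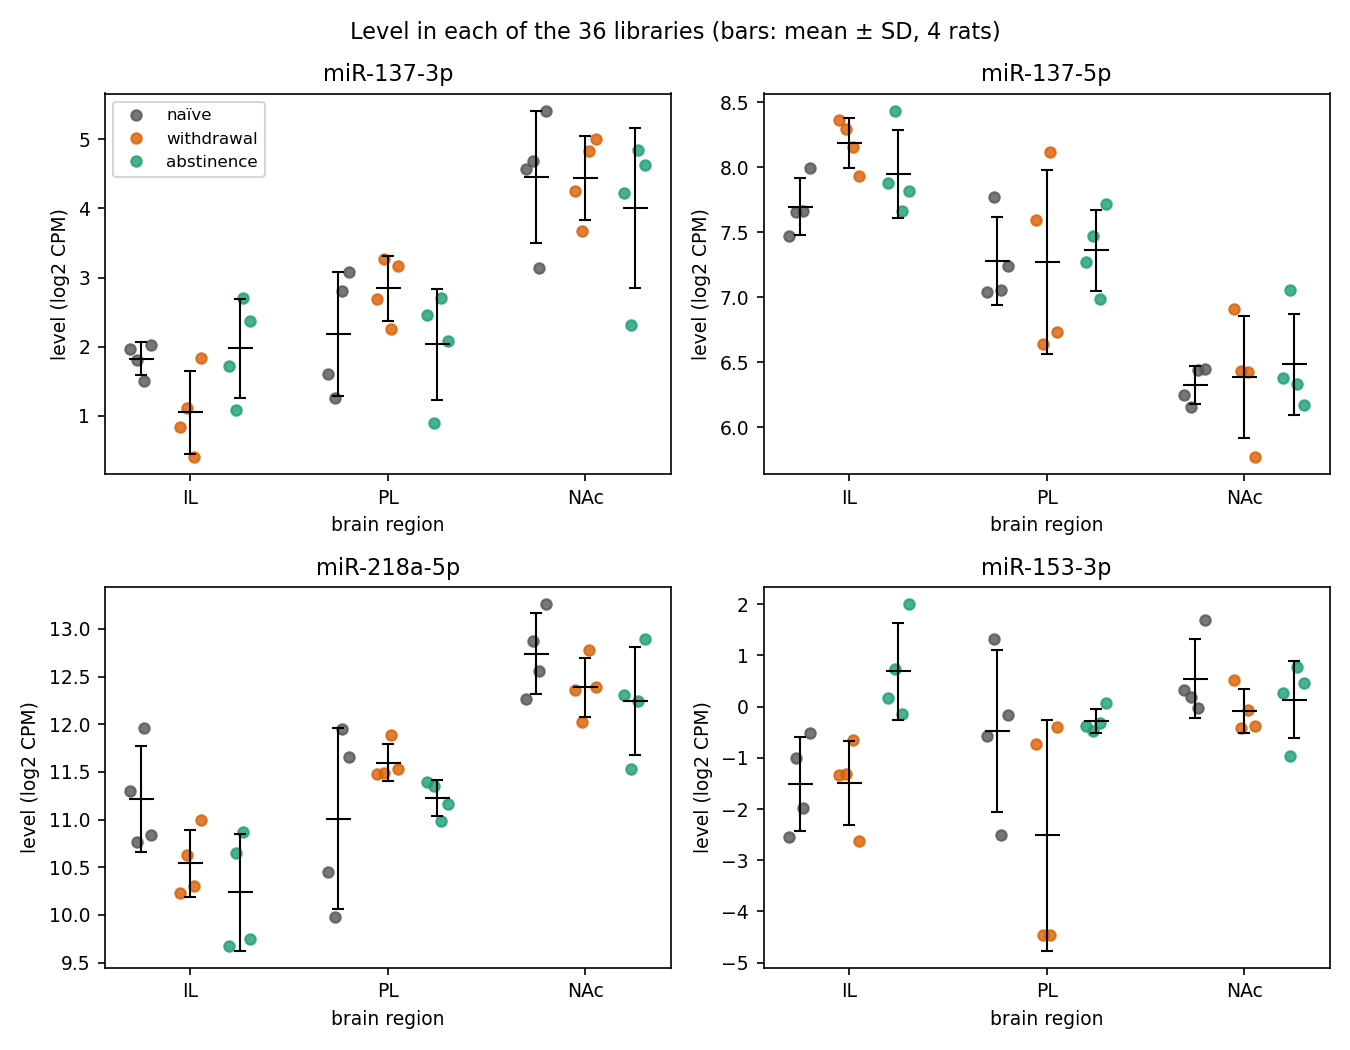
Level of 4 members in each library, in log2 CPM (prior count 0.5), by brain region and group, with the mean and SD of 4 rats as bars. miR-137-3p and miR-218a-5p sit highest in the NAc and miR-137-5p lowest there, and in the IL the abstinence points of miR-153-3p lie above those of both other groups, while 2 withdrawal PL libraries of miR-153-3p have 0 counts and are drawn at the floor of the scale.

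The first question was how the members differ between the regions of the same rat. miR-137-3p was higher in the NAc than in both cortical regions, at 22.5 ± 10.4 CPM (SD, n = 12) against 3.32 ± 1.48 in the IL and 5.68 ± 2.56 in the PL. By rat the NAc values ran from 4.93 to 42.4 CPM, and the lowest of them was that of M363, below the highest IL value of 6.50 CPM, so the regions overlapped. In every rat the NAc library was above its own IL and PL libraries, by 0.33 to 4.42 on the log2 scale. With 1 term per rat and RIN as a covariate, edgeR's quasi-likelihood test gave a log2FC of 2.66 ± 0.25 (SE) against the IL (adjusted p = 4.079e-10) and of 1.84 ± 0.24 against the PL (adjusted p = 2.755e-07). IL was lower than PL by a log2FC of -0.82 ± 0.25 (adjusted p = 0.0128), with 5 of 12 rats the other way on log2 CPM. That gap was widest in withdrawal rats, whose mean log2 CPM was 1.05 in the IL and 2.84 in the PL. The means were 1.83 and 2.18 in naïve rats and 1.97 and 2.03 in abstinence rats.

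miR-137-5p went the opposite way. Its level was 252 ± 55.3 CPM (SD, n = 12) in the IL, 165 ± 52.3 in the PL and 86.5 ± 21.1 in the NAc, and the NAc was lowest in 12 of 12 rats. The IL and NAc libraries did not overlap, since the lowest IL value was 177 CPM and the highest NAc value 133 CPM. The log2FC was -1.54 ± 0.13 for NAc against IL (adjusted p = 6.957e-11), -0.92 ± 0.13 for NAc against PL (adjusted p = 9.966e-07) and 0.63 ± 0.13 for IL against PL (adjusted p = 0.00386), by the same edgeR test. The last of these was below the fold threshold without M366 (0.53), without M154 (0.57) and in the 4 naïve rats alone (0.51).

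The 3p arm therefore made up a different share of the miR-137 counts in each region: 1.32% in the IL, 3.70% in the PL and 20.1% in the NAc. Single libraries ranged from 0.448% (95% exact binomial interval 0.239 to 0.764%, 13 of the counts of both arms) to 3.11% in the IL, from 1.01 to 8.75% in the PL and from 3.58 to 36.9% in the NAc. Those intervals cover counting error only. Within rats the ratio of 3p to 5p was 18.95-fold higher in the NAc than in the IL, a difference of 4.24 ± 1.02 on the log2 scale (SD, n = 12 rats). It was 7.25-fold higher in the NAc than in the PL (2.86 ± 1.33), and both differences were in the same direction in 12 of 12 rats. An exact sign-flip test gave p = 0.000488 for each, the smallest that 12 rats allow. IL against PL differed by -1.39 ± 1.32 (exact p = 0.00586), with 10 of 12 rats lower in the IL. A ratio within a library does not depend on its depth or scaling.

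Among the 141 miRNAs with both arms tested, the difference between the arms in NAc against IL was 4.21 for miR-137 from the fitted log2FCs, the largest of all. The others ranged down to -4.00, and the median size was 0.93. In NAc against PL miR-137 ranked 2 of 141 and in IL against PL 5 of 141. Across the 36 libraries, after the mean of each region was taken out, the levels of both arms had a Pearson r of -0.60, and without that step -0.88, as a description of libraries that share rats and scaling.

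**Figure D2:**
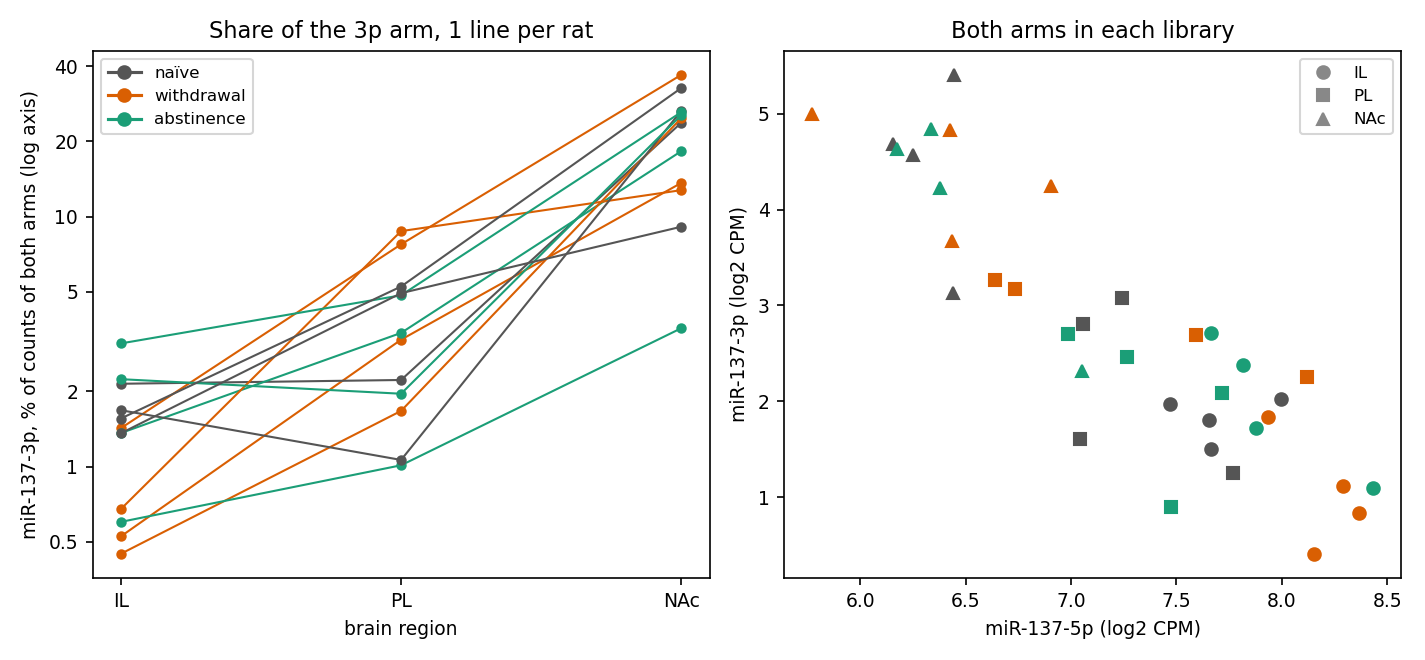
Left, the share of miR-137-3p among the counts of both miR-137 arms in percent on a log axis, by region, with 1 line per rat coloured by group. Right, the level of miR-137-3p against that of miR-137-5p in log2 CPM, 1 point per library, with circles for IL, squares for PL and triangles for NAc. Every line ends higher in the NAc (3.58 to 36.9%) than in the IL (0.448 to 3.11%), and the lowest NAc share is that of the abstinence rat M363.

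miR-218a-5p was also highest in the NAc, at 5884 ± 1839 CPM (SD, n = 12) against 1777 ± 850 in the IL and 2640 ± 870 in the PL. All 12 rats were higher in the NAc than in either cortical region. Group ranges overlapped, since 1 NAc library (M363) was at 2947 CPM and 1 IL library (the naïve rat M476) at 3988 CPM. The log2FC was 1.76 ± 0.21 against the IL (edgeR adjusted p = 3.651e-08) and 1.14 ± 0.21 against the PL (adjusted p = 3.86e-05). IL was below PL by -0.63 ± 0.21 (adjusted p = 0.022). That last call was lost without any 1 of M170, M153 or M172 (-0.55 to -0.57), and in the 4 naïve rats alone the value was -0.04.

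The 3p arms of both copies did not pass the test in any pair of regions. miR-218a-1-3p was at 0.83 ± 0.44 CPM (SD, n = 12) in the IL, 1.01 ± 0.419 in the PL and 0.987 ± 0.232 in the NAc, and miR-218a-2-3p at 1.18 ± 0.676, 1.02 ± 0.418 and 1.31 ± 0.343. For NAc against IL the log2FC was 0.33 (95% interval -0.14 to 0.80) for the first and 0.20 (-0.28 to 0.67) for the second. The ratio of the 5p arm to both 3p arms together was 3.33-fold higher in the NAc than in the IL, in 10 of 10 rats with at least 10 counts on each side (exact sign-flip p = 0.00195). That rule left out M153 and M476, whose IL libraries each held 9 counts of the 3p arms. The 5p share was 99.91% in the IL and 99.95% in the NAc of M153. In M476 it went the other way, at 99.98% in the IL and 99.97% in the NAc. The GC content is 38.1% in the 5p arm and 47.6% and 59.1% in the 3p arms. This ratio is not corrected for it.

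miR-153-3p was at 1.23 ± 0.694 CPM (SD, n = 12) in the NAc, 0.863 ± 1.06 in the IL and 0.707 ± 0.643 in the PL. NAc against PL passed the test, with a log2FC of 1.20 ± 0.45 (edgeR adjusted p = 0.0201), 10 of 12 rats being higher in the NAc. That call was lost without the naïve rat M476 (1.13) and in the fit without the rat term, given with the processing. NAc against IL did not pass (0.85 ± 0.43, adjusted p = 0.0753), again with 10 of 12 rats higher in the NAc. miR-153-5p was too low to be fitted, but its counts were higher in the NAc in 11 of 12 rats against the IL and in 11 of 12 against the PL. All 12 NAc libraries had a count of it (2 to 14), whereas 8 of 12 IL and 4 of 12 PL libraries had 0.

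These calls have to be read against how many miRNAs differed between regions at all. By the same rule (fold of at least 1.5 with an adjusted p under 0.05), 62.6% of the 457 miRNAs tested differed between NAc and IL, 49.2% between NAc and PL and 17.1% between IL and PL. Of the 6 members tested, 3, 4 and 3 did so. The median log2FC of the 6 was 0.59, 0.76 and -0.05, beside 0.10, 0.05 and -0.02 over all miRNAs tested. From the neuron-enriched list, 3 of 19 were higher and 8 lower in the NAc than in the IL, 3 higher and 5 lower than in the PL. Between IL and PL 0 were higher in the IL and 2 lower. The median log2FC of the list was -0.38, -0.46 and 0.01 in these comparisons.

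Region differences followed base composition across miRNAs. Over the 411 tested miRNAs with a RefSeq sequence, the Pearson r of GC content with log2FC was -0.58 for NAc against IL, -0.43 for NAc against PL and 0.57 for IL against PL, as a description across miRNAs, which are not independent replicates. miRNAs of low GC content (up to 42.9%, the lower quartile) had a median log2FC of 1.56 in NAc against IL, and those of high GC content (56.8% and over, the upper quartile) one of -0.84. The 3 members that were higher in the NAc all have a GC content below 40%.

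With each library's trend on GC content taken out, a fit added after seeing the data, miR-137-3p was still higher in the NAc, by 0.97 ± 0.14 against the IL and 0.65 ± 0.14 against the PL, and miR-137-5p lower, by -2.18 ± 0.16 and -1.34 ± 0.16, all past the edgeR test. The difference between the arms of miR-137 was then 3.15 in NAc against IL and ranked 2 of 119 miRNAs. Across miRNAs that difference had a Pearson r of -0.63 with the difference in GC content of the arms as reported. With the correction the r was -0.09. miR-218a-5p fell below the fold threshold, at 0.37 ± 0.14 against the IL and 0.17 ± 0.14 against the PL. miR-153-3p was at -0.68 ± 0.45 and 0.04 ± 0.41, not past the test, and so lost its NAc against PL call. miR-218a-2-3p instead passed, at 0.67 ± 0.25 and 0.61 ± 0.26. miR-218a-1-3p was at -0.06 against the IL. The 5p arm of miR-218a, at 0.37, then lay between its 3p arms and no longer above both. In IL against PL miR-137-5p kept its call (0.84 ± 0.16), and miR-137-3p (-0.32 ± 0.15) and miR-218a-5p (-0.20 ± 0.15) lost theirs. Such a correction also removes any difference between regions that goes with GC content for another reason, and which of these applies was not tested. In this fit 50.9% of the 411 miRNAs were called for NAc against IL, 44.3% for NAc against PL and 6.57% for IL against PL.

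**Figure D3:**
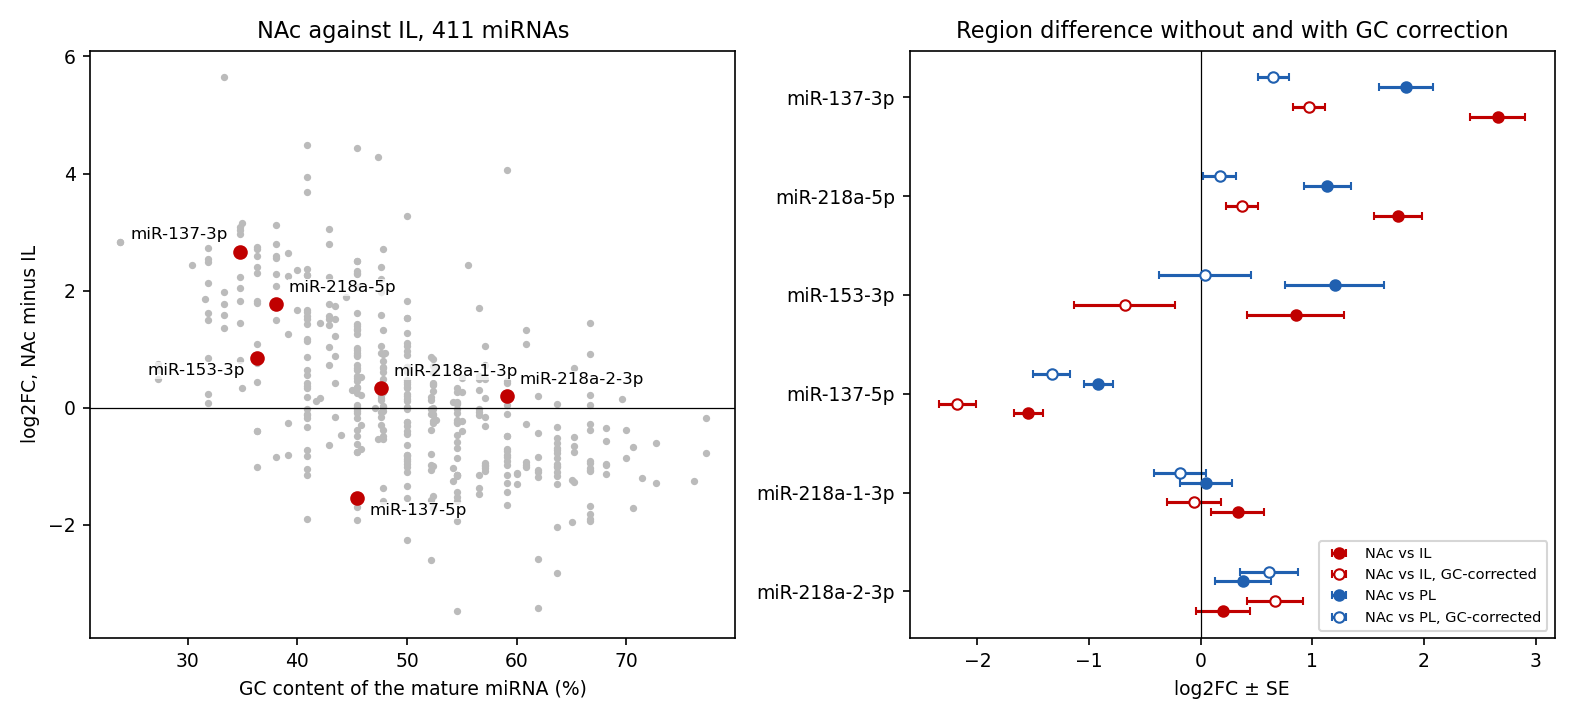
Left, log2FC of NAc against IL (positive when higher in the NAc) by GC content of the mature miRNA in percent for 411 miRNAs, in grey, with the 6 members tested in red. Right, log2FC with its SE for NAc against IL (red) and NAc against PL (blue), filled for the fit as reported and open with the GC trend of each library removed. miR-137-3p moves from 2.66 to 0.97 and miR-218a-5p from 1.76 to 0.37 against the IL, while miR-137-5p moves from -1.54 to -2.18.

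The second question was what withdrawal and abstinence changed within a region. Here the study's rule was used, a fold of 1.5 or more and an unadjusted p under 0.05, with adjusted p-values beside it, and no member reached an adjusted p under 0.05 in any of these comparisons. In the IL 2 of 6 members passed for abstinence against naïve (1 higher, 1 lower), beside 8.32% of all miRNAs tested. For abstinence against withdrawal 3 passed, all higher, beside 6.35%, and for withdrawal against naïve 0, beside 6.35%. In the PL 1 passed for withdrawal against naïve, beside 4.81%, and 0 passed for abstinence against naïve (2.41%) and against withdrawal (3.50%). In the NAc 0 passed in each comparison, beside 2.84% for withdrawal against naïve, 1.09% for abstinence against naïve and 0.875% for abstinence against withdrawal.

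miR-153-3p was higher in the IL of abstinence rats than in both other groups. Naïve IL libraries held 1, 5, 2 and 5 counts (0.125, 0.454, 0.207 and 0.651 CPM), withdrawal libraries 3, 3, 6 and 1 (0.348, 0.355, 0.591 and 0.118 CPM) and abstinence libraries 7, 14, 9 and 36 (1.08, 1.62, 0.860 and 3.95 CPM). All 4 abstinence rats lay above all 8 others, and the highest was M456. The log2FC was 2.39 ± 0.79 against naïve (p = 0.00508, adjusted p = 0.288) and 2.37 ± 0.77 against withdrawal (p = 0.0042, adjusted p = 0.305) in edgeR's quasi-likelihood test, and the exact permutation test on log2 CPM gave p = 0.0286 for each. That is the smallest p that 4 rats against 4 allow, and 54 such tests were run over the members. Without M456 the log2FC was 1.66 against naïve and 1.67 against withdrawal, neither past the threshold. These are low counts, at which 1 read changes a value visibly.

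Other regions did not show the same for miR-153-3p. In the PL the abstinence libraries held 6, 7, 9 and 10 counts and the naïve ones 5, 21, 1 and 7, with a log2FC of -0.37 ± 0.72. In the NAc the counts were 15, 6, 23 and 16 in abstinence and 20, 12, 13 and 36 in naïve rats, with a log2FC of -0.45 ± 0.66. The change in the IL differed from that in the PL by 2.76 ± 1.06 (adjusted p = 0.416) and that in the NAc differed from it by -2.83 ± 1.01 (adjusted p = 0.793), by edgeR's test of the difference itself, both past the unadjusted threshold only. This fit has no rat term, so it does not pair the regions of a rat. Values with 1 term per rat are given with the flagged results. Both were lost without M456 (2.20 and -2.19), and the first also without M378 (2.03).

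In the PL of withdrawal rats miR-153-3p had 7, 0, 0 and 9 counts against 5, 21, 1 and 7 in naïve rats. The log2FC was -1.66 ± 0.78 (p = 0.0403, adjusted p = 0.624 in edgeR), and the groups overlapped (exact permutation p = 0.2). The 2 libraries at 0 counts (M366 and M172) allow up to 0.159 and 0.382 CPM. The call was lost without any 1 of M378 (-0.75), M366 (-1.16), M172 (-1.37) and the abstinence rat M363 (-1.54). In a limma-voom fit abstinence against withdrawal in the PL passed as well (2.42 ± 0.87), where edgeR gave 1.29 ± 0.79 and did not pass.

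miR-218a-5p, by contrast, was lower in the IL of abstinence rats. CPM values were 2521, 1740, 3988 and 1827 in naïve rats, 1202, 1582, 1264 and 2047 in withdrawal rats and 819, 1601, 1875 and 862 in abstinence rats. Abstinence and naïve rats overlapped, since M472 at 1875 CPM lay above the naïve rats M378 and M480. The log2FC was -0.90 ± 0.36 against naïve (p = 0.0187, adjusted p = 0.377 in edgeR, exact permutation p = 0.0857). Leaving out M170, M456 or M476 took it to -0.76, -0.66 and -0.66, past the threshold in no case. Withdrawal against naïve gave -0.68 ± 0.35, which is not past the threshold, and the difference between abstinence and withdrawal was -0.22 ± 0.35 (95% interval -0.90 to 0.45).

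In the PL the naïve rats themselves were far apart for miR-218a-5p, at 1395, 1006, 3959 and 3234 CPM, while withdrawal rats were at 2848, 2879, 3778 and 2957 and abstinence rats at 2694, 2618, 2021 and 2294. All 4 abstinence rats lay below all 4 withdrawal rats (exact permutation p = 0.0286), but the log2FC of -0.30 ± 0.36 was not past the edgeR test. In the NAc the values were 4922, 7506, 6044 and 9796 CPM in naïve, 5268, 4163, 7042 and 5367 in withdrawal and 5063, 2947, 4864 and 7630 in abstinence rats, with all groups overlapping. The change at withdrawal differed between IL and PL by -1.04 ± 0.50 (adjusted p = 0.443 in edgeR, past the unadjusted threshold only). That difference was lost without any 1 of 7 rats and, with the GC trend removed, was -0.65 and not past it.

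miR-137-3p in the IL was at 3.25, 2.09, 6.50 and 5.15 CPM in abstinence rats (21, 18, 68 and 47 counts), against 1.74, 2.13, 1.28 and 3.53 in withdrawal rats (15, 18, 13 and 30 counts) and 3.88, 3.45, 2.79 and 4.03 in naïve rats. The abstinence and withdrawal groups overlapped. The log2FC of abstinence against withdrawal was 1.01 ± 0.46 (p = 0.037, adjusted p = 0.529 in edgeR, exact permutation p = 0.143). It did not pass without RIN in the model (0.98), in limma-voom with the rat as a random block (1.16; without the block limma-voom gave 1.18, past the threshold) or without M472, M456, M153 or M172 (0.79 to 0.93). The same change in the PL was -0.42 ± 0.45, and the difference of both was 1.43 ± 0.64 (adjusted p = 0.965 in edgeR, past the unadjusted threshold only), and 1.00 without M456.

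In the NAc the log2FCs of miR-137-3p were -0.20 ± 0.42 for withdrawal and -0.13 ± 0.43 for abstinence against naïve, with 95% intervals of -1.01 to 0.62 and -0.97 to 0.71. Its counterpart miR-137-5p passed in none of the 9 comparisons, with log2FCs between -0.26 and 0.43. The largest of these was withdrawal against naïve in the IL (0.43 ± 0.27), where withdrawal rats were at 330, 313, 285 and 244 CPM and naïve rats at 177, 202, 203 and 255. The ratio of the miR-137 arms did not pass a test between groups in any region. The lowest p was that of withdrawal against naïve in the IL, where the 3p share was 0.721% against 1.65% of the pooled counts and the log2 ratio differed by -1.28 (exact permutation p = 0.0571, adjusted p = 0.4 over 14 ratio tests).

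Within regions too, log2FCs went with GC content. Over 411 miRNAs the Pearson r for withdrawal against naïve was 0.29 (IL), -0.37 (PL) and 0.43 (NAc). For abstinence against naïve it was 0.14, -0.17 and 0.54, as a description across miRNAs. With the GC trend of each library removed, the 6 calls of members kept their direction and stayed past the threshold. In the IL they were 2.34 and 2.04 for miR-153-3p in abstinence against naïve and withdrawal, -0.85 for miR-218a-5p, 0.67 for miR-137-3p and 1.02 for miR-218a-2-3p, and in the PL -2.20 for miR-153-3p.

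**Figure D4:**
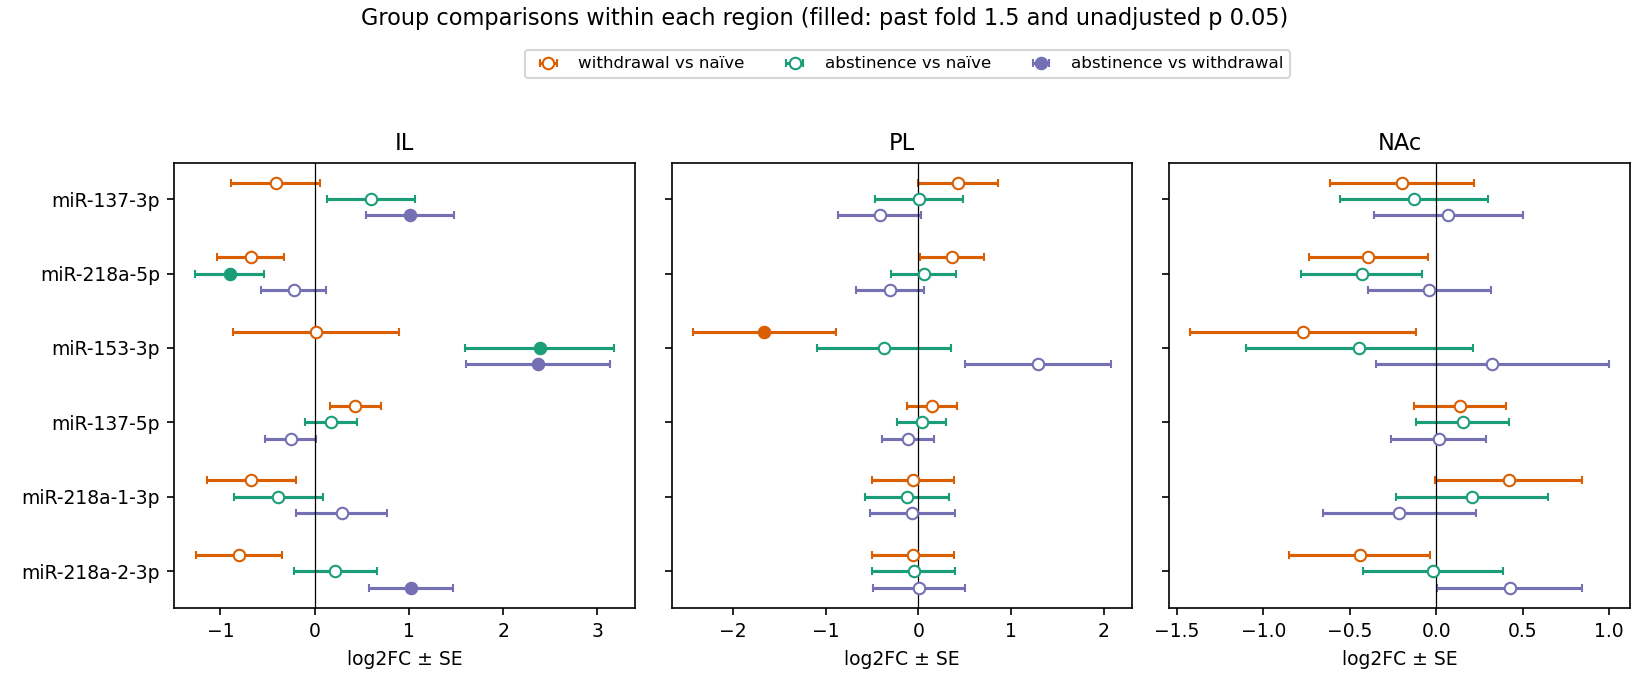
log2FC with its SE for the 6 members tested in each region, from edgeR, for withdrawal against naïve (orange), abstinence against naïve (green) and abstinence against withdrawal (purple), filled where the fold was at least 1.5 and the unadjusted p under 0.05. The filled points are 5 in the IL and 1 in the PL, with miR-153-3p at 2.39 and 2.37 in the IL the largest.

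Of the 3p arms of miR-218a, miR-218a-2-3p was higher in the IL of abstinence than of withdrawal rats, with 5, 12, 22 and 17 counts against 5, 7, 10 and 5. The log2FC was 1.02 ± 0.44 (p = 0.0278, adjusted p = 0.529 in edgeR, exact permutation p = 0.0857), and the groups overlapped. Without M472 it was 0.71, without M456 0.93 and without M153 or M154 0.94, none past the threshold, and in the 12 IL libraries alone it was 1.06 and did not pass. miR-218a-1-3p, from the other copy, passed in none of the 9 comparisons. In the NAc the ratio of miR-218a-2-3p to miR-218a-1-3p was higher in all 4 abstinence than in all 4 withdrawal rats, by 0.86 on the log2 scale (exact permutation p = 0.0286, adjusted p = 0.4 over 14 ratio tests).

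With the 3 regions of each rat summed, miR-153-3p was higher in abstinence than in withdrawal rats, by 1.09 ± 0.41 (adjusted p = 0.862 in edgeR), beside 2.19% of all miRNAs called. Without M456 it was 0.78 and without M366 0.90, neither past the threshold. No member was called in the summed comparisons of withdrawal with naïve (2.19% of all called) and abstinence with naïve (1.75%); miR-218a-5p in the latter was at -0.43 ± 0.17, under the fold threshold.

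Of the neuron-enriched list, 1 of 19 was called in the IL for abstinence against naïve, beside 8.32% of all miRNAs. It was miR-132-5p, from a locus induced by neuronal activity (-0.63 ± 0.27, adjusted p = 0.387 in edgeR). miR-132-3p, miR-212-3p and miR-212-5p, also listed, were not called. For abstinence against withdrawal 0 of 19 were called, beside 6.35%. The list's median log2FC was 0.02 and 0.13 in these comparisons, beside 0.02 over all miRNAs in each. For PL withdrawal against naïve 2 of 19 were lower, miR-128-1-5p (-0.85 ± 0.29) and miR-433-3p (-0.59 ± 0.26), both with an adjusted p of 0.624 in edgeR, beside 4.81% of all miRNAs called. The median log2FC of the list was then -0.20, beside -0.0013 over all miRNAs. In PL abstinence against naïve, where no member was called, 1 of 19 was lower, miR-128-1-5p (-1.05 ± 0.30, adjusted p = 0.428 in edgeR), beside 2.41% of all miRNAs called. The list's median was -0.20 beside -0.09.

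Markers of other cells differed where members did, and their part in these results was not tested. In NAc against IL, where 62.6% of all miRNAs were called, 4 of 5 vessel and blood miRNAs tested were higher and 1 lower (median log2FC 1.62). Their summed level ran from 2478 to 13410 CPM in the NAc and from 1551 to 5632 CPM in the IL. Both oligodendrocyte miRNAs in the table, miR-338-3p and miR-338-5p, were higher (979 to 1735 CPM summed against 540 to 1533 CPM), and of 3 muscle miRNAs tested 1 was higher and 2 lower. Of 3 immune cell miRNAs tested, miR-142-5p was higher (1.77 ± 0.41) and miR-150-5p lower (-0.90 ± 0.11). Of 8 choroid plexus and ependyma miRNAs 1 was lower, miR-204-3p (-0.97 ± 0.13). In NAc against PL, 3 vessel and blood miRNAs were higher and 1 lower, miR-338-3p was higher and 2 muscle miRNAs were lower. miR-142-5p was higher (1.43 ± 0.40) and miR-150-5p lower (-0.85 ± 0.11) there too, and 0 of 8 choroid plexus and ependyma miRNAs were called. In IL against PL the endothelial miR-126a-3p (-0.94 ± 0.25) and miR-126a-5p (-0.87 ± 0.28) were lower, as was miR-218a-5p. Of the erythrocyte miRNAs, miR-451-5p had 326 counts and was at 0 in 2 libraries, and miR-144-3p was at 0 in 34 of 36. miR-451-5p was higher in the NAc than in the IL (1.82 ± 0.45) and the PL (0.95 ± 0.40). It was lower in summed abstinence against withdrawal (-0.99 ± 0.42, adjusted p = 0.951 in edgeR), the comparison in which miR-153-3p was called. There miR-451-5p was the only call of 5 vessel and blood miRNAs tested. The median log2FC of these 5 was -0.05, beside -0.01 over all miRNAs.

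Within regions, 1 of 8 choroid plexus and ependyma miRNAs was lower in the IL for abstinence against naïve, beside 8.32% of all miRNAs called in either direction. It was miR-34c-3p (-1.66 ± 0.67), with 310 counts over all libraries. For abstinence against withdrawal 2 were lower, beside 6.35%. These were miR-34b-3p (-1.25 ± 0.57, 2462 counts) and miR-449a-5p (-2.38 ± 1.15, 224 counts and at 0 in 5 libraries). The median log2FC of the 8 was -0.91 and -0.93 in these comparisons, beside 0.02 over all miRNAs in each. The summed level of that list was 1168 to 1748 CPM in abstinence, 1433 to 1980 in naïve and 1270 to 2843 in withdrawal IL libraries. That sum is mostly miR-204-5p (626422 counts), which was not called in these comparisons. In the PL of withdrawal against naïve rats miR-338-3p was higher (0.88 ± 0.41) and miR-150-5p, of lymphocytes, lower (-0.60 ± 0.21). The summed level of the immune cell list there was 664 to 1008 CPM in withdrawal and 1011 to 1382 CPM in naïve libraries, ranges that nearly met. The withdrawal libraries were also the deeper ones. Over all libraries the list is mostly miR-150-5p (219400 counts) and miR-146a-5p (120162), beside miR-142-5p (540), miR-142-3p (95) and miR-223-3p (56). Of this list 3 were tested there, and miR-150-5p was the only call. Immune cell and muscle miRNAs tested had 0 calls in the 3 IL comparisons.

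RNA integrity was set against the levels of members and the miR-137 arm ratio over the 12 rats of each region, in 15 relations. miR-137-3p in the NAc had a Pearson r of 0.73 with RIN (permutation p = 0.00869, adjusted p = 0.0698) and a Spearman rho of 0.72 (permutation p = 0.0102, adjusted p = 0.0977). Without the 2 rats of most extreme RIN its r was 0.20, so that relation rests on them. In the IL and PL its r was 0.33 and 0.50 (permutation p = 0.287 and 0.0994). miR-137-5p in the IL had an r of -0.69 (permutation p = 0.0108, adjusted p = 0.0698) and a rho of -0.56 (permutation p = 0.06, adjusted p = 0.18), with r -0.34 without those 2. The ratio of miR-137-3p to miR-137-5p in the NAc had an r of 0.69 (permutation p = 0.014, adjusted p = 0.0698). Its rho was 0.70 (permutation p = 0.013, adjusted p = 0.0977), and its r was 0.15 without the 2 rats of most extreme RIN. In the IL and PL its r was 0.48 and 0.32. The sign-flip tests of that ratio between regions had no RIN term.

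miR-218a-5p in the IL had an r of 0.37 (permutation p = 0.231, adjusted p = 0.364) and a rho of 0.66 (permutation p = 0.0219, adjusted p = 0.11), with r 0.87 without the 2 rats of most extreme RIN. miR-153-3p in the IL had an r of -0.46 (permutation p = 0.137, adjusted p = 0.343) and a rho of -0.53 (permutation p = 0.0776, adjusted p = 0.194), with r -0.67 without them. No relation reached an adjusted p under 0.05. These are the members called in IL abstinence against naïve, where RIN was 7.9 to 9.1 in abstinence and 8.9 to 9.2 in naïve libraries. RIN was a covariate in that test, and its further part in these results was not tested. With M363 left out, the log2FC of miR-137-3p in NAc against IL was 2.78, and that of miR-153-3p in IL abstinence against naïve 2.31.

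By level across libraries, with the mean of each region taken out, the miRNAs most like miR-137-3p were miR-9a-3p (Pearson r = 0.91 over 36 libraries), miR-30c-5p (0.86) and miR-140-5p (0.83). Those most like miR-218a-5p were miR-434-5p (0.95), miR-99a-5p (0.93) and miR-126a-3p (0.92), the last a miRNA of endothelial cells. For miR-153-3p the closest were miR-369-3p (0.65) and the let-7a-1-3p and let-7c-2-3p arms (0.57 each), which have identical values in the table. The members were less alike among themselves, with r of 0.46 between miR-137-3p and miR-218a-5p, 0.01 between miR-137-3p and miR-153-3p and -0.44 between miR-153-3p and miR-218a-5p. Libraries of 1 rat and a common scaling are shared by all these points.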

How the data were processed

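Small RNA was sequenced from 36 libraries. According to the authors' methods, libraries were ligated from total RNA of frozen tissue, sequenced in pools of 12 and counted by mature miRNA in CAP-miRseq. Which libraries shared a pool is not stated. The deposited values are whole-number counts, not normalized, for 723 miRNAs. The paper and the submitters' processing notes name different genome builds (the notes give mRatBN7.2), which cannot be settled from counts. Adapter ligation and amplification can favour some sequences, so levels of different miRNAs or arms are not compared as molecule numbers. RefSeq names matched 411 of 457 tested miRNAs.

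The members, lists and tests were chosen with earlier results of these data known. By rule the text names the members, the 3 miRNAs most alike to each of miR-137-3p, miR-153-3p and miR-218a-5p, and neuron-enriched miRNAs called in a within-region comparison in which a member was; any further miRNA was picked with its value in view. R 4.3.3, edgeR 4.0.16, limma 3.58.1 and DESeq2 1.42.0 were used. filterByExpr (minimum count 10, minimum total count 15) kept 457 miRNAs, TMM scaled the libraries, and edgeR's quasi-likelihood test was fitted to all 36 libraries with 1 mean per group and region and RIN (adjusted p by Benjamini-Hochberg over 457). Regions were compared with 1 term per rat. Differences of changes between regions came from the fit without that term, so the regions of 1 rat were not paired there. Log2 CPM used a prior count of 0.5. SEs are the log2FC over the root of the F statistic. Permutation tests are two-sided. Self-tests on simulated data covered edgeR's within-region, region, summed and GC-corrected fits and the within-region limma-voom and DESeq2 fits. Differences of changes and limma-voom with a random block had none.

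Rats pair the samples across regions because each gave all 3; deviations from group means of 1 rat's libraries had a median r of 0.147 (NAc and IL), 0.267 (NAc and PL) and 0.265 (IL and PL). The labels and a list in the paper tie libraries to rats, except 1 naïve NAc library, assigned to M480 as the only rat left without one. The 54 pairs of libraries of 1 group and region included 0 identical pairs. Alternatives were other tests, scalings, filters, covariates, blocks and left-out rats, and, added after seeing the data, a GC correction and leaving out M363.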

Additional observations from a re-analysis of the deposited data

Results flagged for a closer look

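Sets of 4 libraries were checked for a single extreme value, 63 in all (6 members and the miR-137 arm ratio in 9 sets each). Of these, 1 passed a limit that chance passes in about 1 set in 20, so the share was below that of chance. miR-218a-5p in the withdrawal PL library of M172 was at 11.88 log2 CPM, beside 11.48 to 11.53 in the other withdrawal rats.

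Changes that differed between regions by edgeR's test of the difference, at an unadjusted p under 0.05, were 4 among the members, and 0 at an adjusted p under 0.05. Of all 457 miRNAs tested, 39 passed that unadjusted threshold for abstinence against naïve between IL and PL, and 20 between NAc and IL. Between IL and PL 12 did for abstinence against withdrawal and 48 for withdrawal against naïve. For abstinence against naïve, miR-153-3p differed by 2.76 between IL and PL and by -2.83 between NAc and IL. For abstinence against withdrawal, miR-137-3p differed by 1.43 between IL and PL. For withdrawal against naïve, miR-218a-5p differed by -1.04 between IL and PL. Each was lost when M456 was left out: 2.20, -2.19, 1.00 and -0.95. The first was also lost without M378 (2.03), the third without M153 (1.35) or M366 (1.38), and the last without any 1 of M363, M153, M366, M172, M157 and M378 (-1.11 to -0.82). Fitted in limma-voom, miR-153-3p between IL and PL (2.06) and miR-137-3p (1.51) were not past the threshold. With 1 term per rat all 4 were (2.41, -2.66, 1.58 and -1.10).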

How the results depend on the processing

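NAc against IL had 3 or 4 calls and NAc against PL 3 to 5 under the alternatives run, and with the GC correction miR-218a-2-3p was called in both and miR-218a-5p in neither. For IL against PL, 3 calls became 0 in the naïve rats alone, where 0 of all 457 miRNAs were called (78 as reported), and 1 with the GC correction. In the IL, withdrawal against naïve had 0 calls as reported and 1 with no filter, with a mean of at least 10 CPM, without RIN and with the GC correction, and abstinence against naïve (2) and against withdrawal (3) had 1 with at least 10 CPM, which drops miR-153-3p and both 3p arms of miR-218a. In the PL, the 1 call of withdrawal against naïve became 0 with at least 10 CPM, in the 12 PL libraries alone and without the rat of RIN under 8, and abstinence against withdrawal (0) had 1 in limma-voom with and without a random replicate block.

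With each rat left out in turn, calls ranged from 0 to 2 for withdrawal and for abstinence against naïve in the IL, from 0 to 3 for abstinence against withdrawal in the IL, from 0 to 2 and from 0 to 1 for withdrawal against naïve and abstinence against withdrawal in the PL, and from 0 to 1 and from 0 to 2 for the same 2 comparisons of summed regions. Of the log2FCs followed, 222 values with a rat left out were on the same side of the threshold as reported, 38 lost it and 4 gained it, and under the other settings 19 lost it and 3 gained it, the cause of which was not tested. Without the replicate block, miR-153-3p in NAc against PL was 0.88 and not past the threshold, and no other region call of a member changed. In limma-voom, the random replicate block took miR-137-3p in IL abstinence against withdrawal from 1.18, past the threshold, to 1.16, not past it. Counts over all miRNAs, on which the background shares rest, moved too: 23 to 58 for IL abstinence against naïve (38 as reported) and 11 to 28 for PL withdrawal against naïve (22). With a rat left out they ran from 24 to 73 and from 5 to 55, and for IL withdrawal against naïve (29) from 8 to 58 and NAc abstinence against naïve (5) from 0 to 29. DESeq2's scaling moved the median log2FC by at most 0.085. miR-153-3p, with 0 to 36 counts a library, is limited by depth.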
